A study of Mus musculus with 30 samples.

Results

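Astrocyte genes, 10 in all, were examined in the SVZ and the striatum of mice with or without ablation of endogenous neural precursor cells (eNPCs). The 10 members were taken by name, as genes that mark or equip astrocytes, with earlier results of these data known. They were the intermediate filament gene Gfap, the calcium-binding protein gene S100b, the glutamate transporters Slc1a2 and Slc1a3, the membrane channels Aqp4, Gja1 and Gjb6, and the metabolic genes Aldh1l1, Glul and Aldoc. They are 10 of 53278 genes in the SVZ count table and 10 of 50508 in the striatum count table. All 10 passed the filter on low counts in each tissue, which left 16375 genes tested in the SVZ and 15419 in the striatum.

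Bulk RNA from SVZ and striatal tissue was read by sequencing in 15 adult mice, 1 library per mouse and tissue. The aim was to ask what happens near the ventricle once eNPCs are removed. The methods name male and female C57Bl/6 mice, 6 to 8 weeks old, beside transgenic mice. They do not give the age of these 15 mice when tissue was taken. NestinTK+ mice carry thymidine kinase under the second intron enhancer of Nestin, so that ganciclovir (GCV) kills dividing Nestin-expressing cells, and NestinTK- mice are wild-type littermates. GCV or PBS was given for 4 weeks by subcutaneous minipump. NestinTK+GCV+ mice (ablated, n = 5, named A1 to A5 here) received the transgene and the drug. The 10 controls were NestinTK-GCV+ mice (n = 3, G1 to G3), NestinTK-PBS+ mice (n = 3, P1 to P3) and NestinTK+PBS+ mice (n = 4, T1 to T4). The same name in both tissues marks samples whose titles share an animal number, taken here as the same mouse. The sex of each animal was not used here, since the labels do not give it, and the labels call the SVZ samples precursor cells although the methods describe dissected tissue.

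Astrocytes take up glutamate and potassium released by neurons, convert glutamate to glutamine, share ions and metabolites through gap junctions and exchange water with blood vessels and ventricles. GFAP is the main intermediate filament of fibrous and reactive astrocytes. In the rodent brain it is abundant in white matter and at the ventricular wall and sparse in most grey-matter astrocytes, including those of the striatum. In the adult SVZ the stem cells themselves are astrocyte-like and express Gfap and Slc1a3, so RNA of both genes there comes from stem cells and from parenchymal astrocytes. In bulk tissue fewer cells of a type and less RNA per cell cannot be told apart.

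Total counts ranged from 8360810 to 9595103 in the ablated SVZ libraries and from 8947137 to 21056005 in the control SVZ libraries. The striatum libraries held 2626962 to 3371033 counts in ablated mice and 2780471 to 4693441 in controls. Depth therefore moved with the ablated group in both tissues. In the SVZ the share of mitochondrial counts did too, at 13.1% to 17.0% in ablated mice and 6.69% to 15.2% in controls, as did the TMM factors, at 0.850 to 0.977 against 0.979 to 1.14 with no overlap. The part of depth and mitochondrial RNA in the results was not tested, and with library totals in place of TMM the SVZ difference of Gfap given below was -1.70. SVZ libraries P1, P2 and T1 stood apart through transthyretin (Ttr), a choroid plexus transcript, which took 4.49% to 9.88% of their counts against at most 0.0789% elsewhere in the SVZ. SVZ libraries A2 and G3 had the highest summed levels of 8 cortical neuron markers, at 660 and 733 CPM against at most 162 CPM in the others. Striatum library T4 had a summed level of 12 spiny neuron markers of 5410 CPM, against 10642 CPM or more in the other striatum libraries, together with the highest oligodendrocyte and choroid plexus marker sums. The ablation itself was visible in the SVZ, where the summed level of 10 dividing-cell markers was 8.41 to 42.0 CPM in ablated mice and 49.9 to 162 CPM in controls.

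Levels are given as CPM, a gene's counts relative to the library total scaled by the trimmed mean of M-values (TMM). In the SVZ, where the library kit reads whole transcripts, levels could be compared between genes per kilobase of exon. Among controls Aldoc stood highest at 217 ± 34.4 CPM per kilobase (SD, n = 10), followed by Slc1a2 at 175 ± 31.3. Glul was next at 98.5 ± 15.3 CPM per kilobase and S100b at 91.2 ± 33.6. Slc1a3 at 48.2 ± 15.7, Gfap at 23.6 ± 19.9 and Gja1 at 20.7 ± 4.69 CPM per kilobase held the middle of the order. Aqp4 at 10.7 ± 3.04, Aldh1l1 at 8.12 ± 3.70 and Gjb6 at 5.29 ± 3.62 CPM per kilobase were lowest. Neighbours in this order overlapped within 1 SD except Slc1a2 against Glul and Gja1 against Aqp4. Gfap had the widest spread among controls, with a coefficient of variation of 84.3% and a 35.0-fold range between G2 and G1. The striatum kit reads 3′ ends only, so no order between genes was drawn there.

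Gfap (ENSMUSG00000020932, GRCm38 chromosome 11, 102887336 to 102900912, minus strand) was the member that changed most in the striatum. Its level in the 5 ablated striata was 3.87 CPM in A1, 6.16 CPM in A2, 1.85 CPM in A3, 3.68 CPM in A4 and 7.64 CPM in A5. In the 10 controls it ran from 6.50 CPM in G2 through a median of 11.8 CPM to 29.1 CPM in T4. In all, 4 of the 5 ablated mice lay below every control, while A5 lay above the controls G2, T1 and T3. Gfap fell by 1.57 on the log2 scale (SE 0.37), a 2.97-fold difference, with an adjusted p = 0.0736 in edgeR's quasi-likelihood test. These values rest on 5 to 23 counts per ablated library and 26 to 109 per control library.

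Calls used an unadjusted p that did not exceed 0.01 together with a 2-fold difference or more. Gfap was the 1 member of 10 that passed in the striatum, against 0.694% of all genes tested. It stood at rank 54 of the 15419 genes by p. No member had an adjusted p under 0.05, which 0.182% of genes reached. Without T4, the control with the highest Gfap, the difference was -1.39 and still passed.

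The sequence before the RefSeq start of Gfap is shown beside that of S100b, because these were the members with the lowest p in the striatum. Both are the 250 bases upstream of the RefSeq start on GRCm38.p6, written 5′ to 3′ on the gene's strand, and 9 of the 10 members had such an entry in the RefSeq table. The Gfap window lies within the gene span given above, which begins at 102900912 on the minus strand. It therefore precedes the RefSeq start and not the start of that span. Capitals mark TTGGC, the half-site of nuclear factor I proteins, which drive astrocyte differentiation, searched on both strands (GCCAA on the other).
Gfap (chr11:102897201-102897450): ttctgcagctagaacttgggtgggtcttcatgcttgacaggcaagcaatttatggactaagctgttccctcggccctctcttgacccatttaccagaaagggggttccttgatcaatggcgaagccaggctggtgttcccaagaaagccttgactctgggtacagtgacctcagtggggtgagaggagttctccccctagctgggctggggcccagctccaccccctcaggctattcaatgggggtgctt
S100b (chr10:76253586-76253835): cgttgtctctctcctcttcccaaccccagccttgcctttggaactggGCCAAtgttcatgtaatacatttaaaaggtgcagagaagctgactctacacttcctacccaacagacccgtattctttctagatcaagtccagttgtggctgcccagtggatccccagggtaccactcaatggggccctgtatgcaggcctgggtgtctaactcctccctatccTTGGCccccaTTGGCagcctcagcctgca
The Gfap window holds no TTGGC and the S100b window holds 3, where 41.5% of 32851 windows of this length hold at least 1. The STAT motif TTCCNNGAA, read by the factors that carry cytokine signals to astrocyte genes, is in neither window and in 4.06% of all windows. TATAAA, the core of the TATA box, is in neither window and in 12.4% of all.

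**Figure D1:**
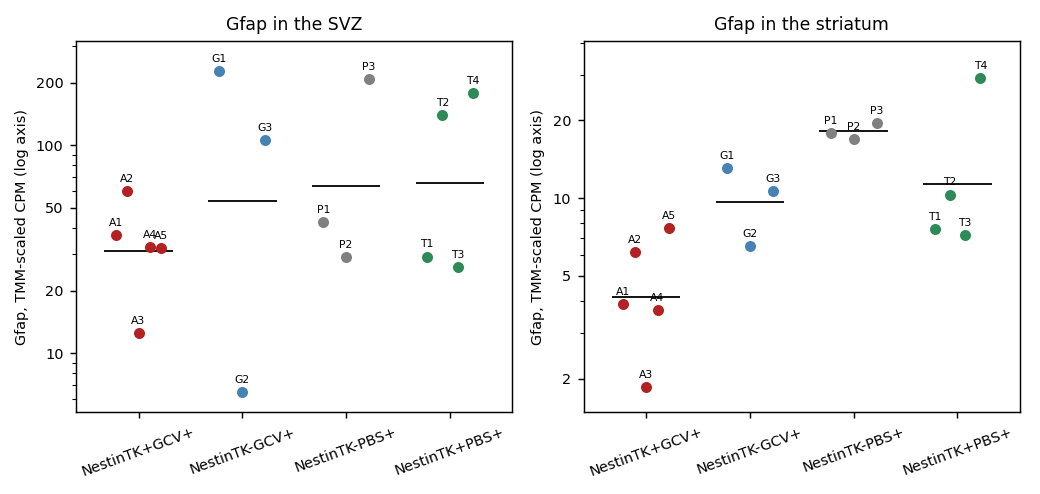
Gfap level in each library, as TMM-scaled CPM on a log axis, in the SVZ (left) and striatum (right) by genotype and treatment; each point is 1 mouse and each bar the mean of the log2 values of its group. In the striatum 4 of the 5 ablated mice lie below every control, and in the SVZ the ablated mice lie between 12.5 and 60.1 CPM within a control range of 6.49 to 227 CPM.

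In the SVZ Gfap was lower in ablated mice by a similar amount, but within a much wider spread. Its level was 37.1 CPM in A1, 60.1 CPM in A2, 12.5 CPM in A3, 32.3 CPM in A4 and 31.9 CPM in A5. Controls ran from 6.49 CPM in G2 through a median of 74.7 CPM to 227 CPM in G1. Among the controls 5 lay above every ablated mouse and the other 5 lay at 43.0 CPM or below, so the groups overlapped, with the lowest library of all among the controls. The difference was -1.51 on the log2 scale (SE 0.65), with an adjusted p = 0.440 in the quasi-likelihood test, and did not pass these thresholds. It passed without G2, at -1.66, and without the choroid-rich controls P1, P2 and T1, at -1.88. No member of 10 passed these thresholds in the SVZ, against 1.59% of all genes, and none had an adjusted p under 0.05, against 0.00611% of genes. At an unadjusted p under 0.05, 2 members stood out, Gfap lower and Gjb6 higher, against 9.81% of all genes. Without 1 mouse at a time 0 to 3 members had such a p, with 0 without A4 or without P3.

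S100b (ENSMUSG00000033208, GRCm38 chromosome 10, 76253853 to 76261159, plus strand) encodes a calcium-binding protein of mature astrocytes that is also found in oligodendrocyte-lineage and ependymal cells. In the ablated striata it was 396 CPM in A1, 412 CPM in A2, 453 CPM in A3, 389 CPM in A4 and 545 CPM in A5. Controls ran from 417 CPM in T3 through a median of 573 CPM to 694 CPM in T4. Of the 5 ablated mice 3 lay below every control. The difference was -0.40 (SE 0.12, adjusted p = 0.189), under the 2-fold threshold. In the SVZ the difference was -0.07 (SE 0.22, adjusted p = 0.962), with ablated mice between 111 and 156 CPM and controls between 80.3 and 263 CPM.

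The glutamate transporters stood apart from Gfap. Slc1a2 (ENSMUSG00000005089, chromosome 2, 102658659 to 102790784, plus strand) encodes GLT-1, which removes most glutamate from the extracellular space. In the striatum it was 2448 to 2906 CPM in ablated mice and 2409 to 3205 CPM in controls, a difference of -0.13 (SE 0.10, adjusted p = 0.682). In the SVZ it was 2240 to 3673 CPM against 1705 to 2771 CPM, a difference of 0.28 (SE 0.14, adjusted p = 0.544). The ranges overlapped in both tissues. Slc1a2 shares 189 exon bases with Gm13872 on the other strand, and reads there cannot be assigned without a stated strand setting.

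Slc1a3 (ENSMUSG00000005360, chromosome 15, 8634124 to 8710764, minus strand) encodes GLAST, the transporter of radial glia, SVZ stem cells and astrocytes. It was the only member with a higher fitted level in ablated mice in the striatum, at 0.17 (SE 0.11, adjusted p = 0.623), with 392 to 532 CPM in ablated mice and 305 to 469 CPM in controls. In the SVZ the difference was 0.37 (SE 0.20, adjusted p = 0.582), with 450 to 715 CPM against 230 to 712 CPM. A2 held the highest value in each tissue. Neither difference passed the threshold.

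Among the channels, Aqp4 (ENSMUSG00000024411, chromosome 18, 15389496 to 15410982, minus strand) encodes the water channel of astrocyte endfeet. In the ablated striata it was 37.3 CPM in A1, 53.6 CPM in A2, 51.4 CPM in A3, 27.8 CPM in A4 and 50.1 CPM in A5. Controls ran from 37.8 CPM in G1 through a median of 65.1 CPM to 125 CPM in T4. Of the 5 ablated mice 2 lay below every control. The difference was -0.60 (SE 0.23, adjusted p = 0.346), and -0.45 without T4. In the SVZ it was -0.22 (SE 0.23, adjusted p = 0.825).

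Gja1 and Gjb6 encode connexin 43 and connexin 30, the gap junction proteins that couple astrocytes. Gja1 (ENSMUSG00000050953, chromosome 10, 56377330 to 56402513, plus strand) differed by -0.05 in the striatum (SE 0.19, adjusted p = 0.953) and by -0.01 in the SVZ (SE 0.22, adjusted p = 0.996). Gjb6 (ENSMUSG00000040055, chromosome 14, 57123303 to 57133611, minus strand) was the member whose direction differed most between the tissues. In the ablated SVZ it was 15.7 CPM in A1, 59.1 CPM in A2, 3.54 CPM in A3, 34.6 CPM in A4 and 53.2 CPM in A5. SVZ controls ran from 1.87 CPM in G2 through a median of 12.5 CPM to 37.9 CPM in T4. A2 and A5 lay above every control and A3 lay near the bottom of the control range. The SVZ difference was 1.23 (SE 0.56, adjusted p = 0.486). In the striatum ablated mice had 37.0 to 66.9 CPM and controls 44.5 to 102 CPM, a difference of -0.40 (SE 0.19, adjusted p = 0.448).

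The metabolic genes showed no difference that passed a threshold. Aldh1l1 (ENSMUSG00000030088, chromosome 6, 90486427 to 90600203, plus strand) encodes a folate enzyme used as a pan-astrocyte marker. Its differences were -0.13 in the striatum (SE 0.21, adjusted p = 0.882) and 0.10 in the SVZ (SE 0.37, adjusted p = 0.968). Glul (ENSMUSG00000026473, chromosome 1, 153899944 to 153909723, plus strand) encodes glutamine synthetase, which turns glutamate taken up by the transporters into glutamine. Its differences were -0.08 in the striatum (SE 0.14, adjusted p = 0.892) and 0.18 in the SVZ (SE 0.21, adjusted p = 0.854), and the SVZ value turned to -0.20 without A2, where Glul stood at 712 CPM against 233 to 321 CPM in the other ablated mice. Aldoc (ENSMUSG00000017390, chromosome 11, 78322968 to 78327781, plus strand) encodes the brain aldolase of glycolysis. Its differences were -0.15 in the striatum (SE 0.11, adjusted p = 0.652) and 0.13 in the SVZ (SE 0.13, adjusted p = 0.816). Aldh1l1 shares 604 exon bases with Gm15756 and Gm45901 and Glul shares 116 with Mir8114 and Teddm2, so their counts are less certain.

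Over the 10 members, 9 were lower in the ablated striatum with a median difference of -0.14, beside 0.00 over all genes tested. In the SVZ 4 were lower and the median was 0.11, beside -0.03 over all genes. In the striatum 4 members had an unadjusted p under 0.05, against 10.5% of all genes, and all 4 (Gfap, S100b, Aqp4 and Gjb6) were lower, a direction in which 5.31% of genes had such a p. Gfap and S100b kept such a p whichever mouse was left out, Aqp4 lost it without A4, and Gjb6 lost it without A1, A3, A5, G1, G3, T1 or T4. No member separated the ablated mice from the controls without overlap in either tissue, where 0.256% of SVZ genes and 0.532% of striatum genes did.

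**Figure D2:**
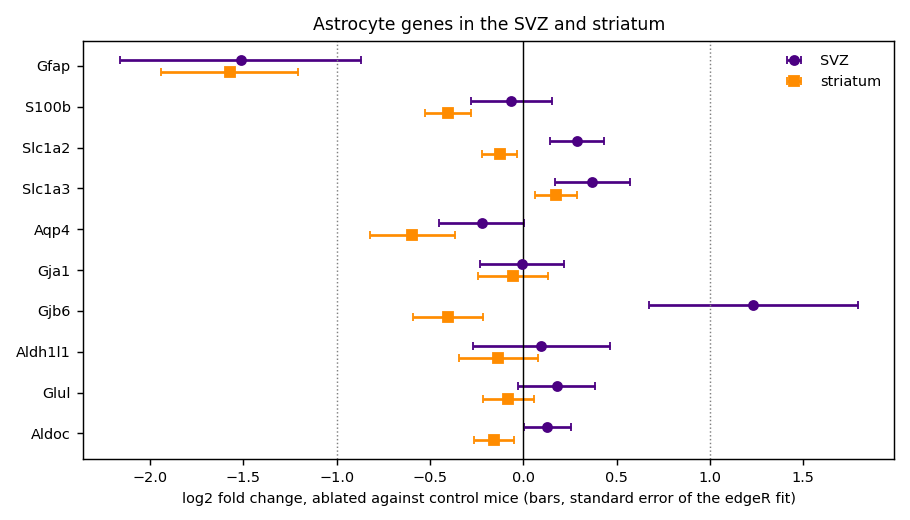
Log2 fold change of each of the 10 genes in ablated against control mice, with bars of 1 standard error of the edgeR fit, in the SVZ (circles) and the striatum (squares); dotted lines mark a 2-fold difference. Gfap lies at -1.51 and -1.57, and of the other 9 only Gjb6 in the SVZ, at 1.23, lies beyond a dotted line.

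To compare Gfap with the transporters, channels and metabolic genes directly, the log2 CPM of Gfap minus that of each other member was taken in every library, and the 5 ablated mice were set against the 10 controls by an exact two-sided permutation test of the mean over all 3003 splits, adjusted over 18 comparisons. In the striatum Gfap fell relative to every other member. The difference was -1.63 against Slc1a3 and -1.32 against Slc1a2 (exact p = 0.00167 and 0.00366, adjusted p = 0.00999 and 0.0103). It was -1.42 against Gja1, -1.06 against Gjb6 and -0.91 against Aqp4 (exact p = 0.00167, 0.0206 and 0.00300, adjusted p = 0.00999, 0.0372 and 0.0103). Against the metabolic genes it was -1.35 for Glul, -1.34 for Aldh1l1 and -1.30 for Aldoc (exact p = 0.00167, 0.0110 and 0.00300, adjusted p = 0.00999, 0.0247 and 0.0103). Against S100b it was -1.05 (exact p = 0.00400, adjusted p = 0.0103). All 5 ablated mice lay below the control median in each of these 9 differences. The 9 share the Gfap value and are not independent.

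In the SVZ Gfap was lower than the control mean relative to every other member too, but 1 of the 9 differences had an exact permutation p under 0.05. Relative to Gjb6 it fell by 2.00 on the log2 scale (exact permutation p = 0.0160, adjusted p = 0.0320). The others lay between -1.40 for Slc1a3 and -0.77 for Aqp4, with exact permutation p from 0.0836 to 0.367. Without G2, 7 of the 9 had an exact permutation p under 0.05. With NestinTK-GCV+ mice as the only controls, 2 of 9 in the striatum and 0 of 9 in the SVZ did, in a design of 5 against 3 whose smallest p is 0.0357.

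**Figure D3:**
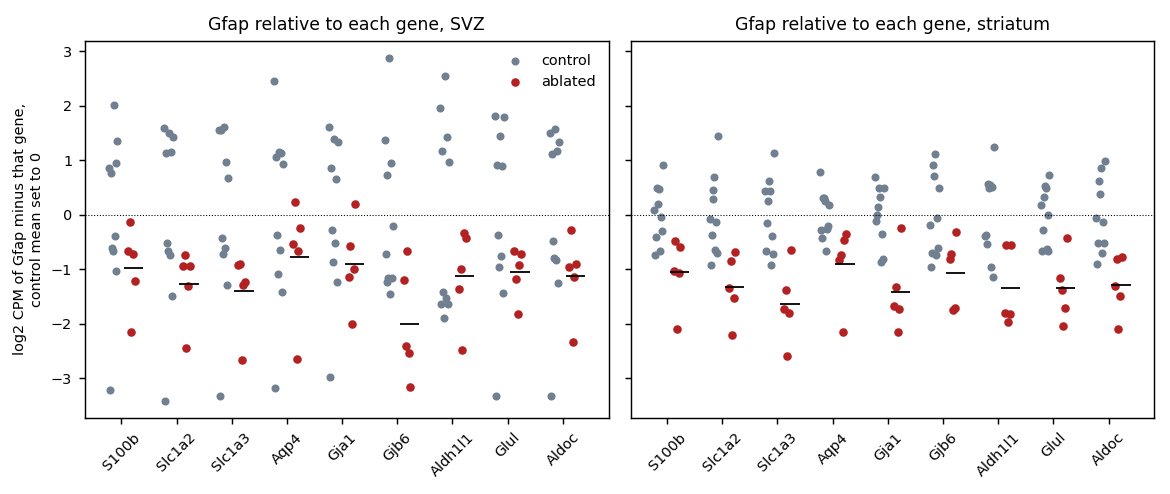
Log2 CPM of Gfap minus that of each other astrocyte gene in every library, with the control mean of each gene set to 0, for control (grey) and ablated (red) mice in the SVZ (left) and striatum (right); black bars are the means of the ablated mice. In the striatum the ablated means lie between -0.91 and -1.63, and in the SVZ the control points spread over more than the ablated ones.

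The 4 groups allow GCV to be set against PBS within each genotype, and the genotypes to be compared within each treatment. In each tissue the leading numbers of the sample titles are lower for every GCV mouse than for any PBS mouse. GCV against PBS therefore cannot be told apart from what these numbers mark, whose part was not tested. The animal numbers in the titles are also lower for every NestinTK-PBS+ mouse than for any ablated mouse. In the striatum Gfap was 13.0, 6.50 and 10.6 CPM in the NestinTK-GCV+ mice, 17.9, 17.0 and 19.6 CPM in the NestinTK-PBS+ mice, and 7.60, 10.3, 7.18 and 29.1 CPM in the NestinTK+PBS+ mice. Each NestinTK-PBS+ mouse lay above each mouse that received GCV, as a description with the same limit. The share of all genes that separate these mice so was not counted. Within NestinTK+ mice Gfap fell by 1.54 on the log2 scale under GCV (SE 0.40, adjusted p = 0.116, past these thresholds). This call was lost without T4, at -0.83. Within NestinTK- mice the difference under GCV was -0.85 (SE 0.44, adjusted p = 0.343), and under GCV NestinTK+ mice differed from NestinTK- mice by -1.10 (SE 0.43, adjusted p = 0.165), which passed without A5, G2 or T4. Under PBS the genotypes differed by -0.42 (SE 0.40, adjusted p = 0.954), and by -1.13 without T4, past the thresholds. The interaction of genotype and treatment was -0.68 (SE 0.59, adjusted p = 0.638), and 0.03 without T4, so an effect of GCV on striatal Gfap in NestinTK+ beyond that in NestinTK- mice was not shown.

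In the SVZ Gfap was 227, 6.49 and 106 CPM in the NestinTK-GCV+ mice, 43.0, 29.2 and 208 CPM in the NestinTK-PBS+ mice, and 29.2, 139, 26.1 and 179 CPM in the NestinTK+PBS+ mice. High and low animals were found in each control group. The differences were -1.42 for GCV against PBS in NestinTK+ mice (SE 0.77, adjusted p = 0.760), 0.28 in NestinTK- mice (SE 0.93, adjusted p = 0.991), -1.71 between genotypes under GCV (SE 0.82, adjusted p = 0.666) and 0.00 between genotypes under PBS (SE 0.87, adjusted p = 1.00). The interaction was -1.70 (SE 1.21, adjusted p = 0.967), and ran from -3.08 without P3 to -0.70 without G1. The NestinTK+ value was -0.90 without T4, and the difference between genotypes under GCV was -0.70 without G1 and passed without G2, at -2.26. None of the 10 members passed these thresholds in these 5 SVZ contrasts, in the same order, where 1.19%, 1.06%, 0.94%, 0.195% and 0.837% of genes did. None had an unadjusted p under 0.05 either, where 7.13%, 7.65%, 7.45%, 2.69% and 5.09% of genes did. Without 1 mouse at a time at most 2 did in any of these contrasts.

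Gjb6 was the other member called among the striatum contrasts. It was 74.4, 66.0 and 88.0 CPM in the NestinTK-GCV+ mice, 46.7, 51.2 and 44.5 CPM in the NestinTK-PBS+ mice, 65.5, 54.2, 56.5 and 102 CPM in the NestinTK+PBS+ mice, and 37.0, 53.3, 38.8, 66.9 and 48.8 CPM in the ablated mice. The NestinTK-GCV+ mice lay wholly above the NestinTK-PBS+ mice, as a description, since the share of all genes that separate these groups so was not counted. GCV went with a higher Gjb6 in NestinTK- mice, at 0.68 (SE 0.23, adjusted p = 0.116), and a lower one in NestinTK+ mice, at -0.51 (SE 0.19, adjusted p = 0.321). Without T4 the second was -0.26. The interaction was -1.19 (SE 0.29, adjusted p = 0.0539 in edgeR's test), and -0.94 without T4, just under a 2-fold difference. The genotypes differed by -0.63 under GCV (SE 0.20, adjusted p = 0.0826) and by 0.55 under PBS (SE 0.21, adjusted p = 0.748), which was 0.31 without T4.

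Of the other members, none was called in the striatum contrasts, although the differences of Gja1 and Aqp4 were larger than those of Gjb6 in single contrasts. Gja1, the partner connexin, differed by -0.73 between GCV and PBS in NestinTK- mice (SE 0.21, adjusted p = 0.0674) and by 0.53 between genotypes under GCV (SE 0.19, adjusted p = 0.136). In NestinTK- mice under GCV the connexins thus lay on opposite sides of the PBS level. Under GCV the genotypes also differed by 0.40 in Slc1a3 (SE 0.14, adjusted p = 0.109), by -0.40 in S100b (SE 0.15, adjusted p = 0.152) and by -0.29 in Aldoc (SE 0.13, adjusted p = 0.254). In NestinTK+ mice GCV against PBS gave -0.73 in Aqp4 (SE 0.25, adjusted p = 0.255) and -0.31 in S100b (SE 0.14, adjusted p = 0.467). Without T4 the differences were -0.33 and -0.17, and neither had an unadjusted p under 0.05.

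Counted over the 10 members in the striatum, these thresholds were passed by 1 for GCV in NestinTK+ mice (1.35% of all genes), 0 for GCV in NestinTK- mice (2.46%), 0 between genotypes under GCV (2.1%), 0 between genotypes under PBS (0.83%) and 1 in the interaction (3.28%). At an unadjusted p under 0.05 the counts were 4 (10.1% of all genes), 2 (16.1%), 6 (17.7%), 1 (6.41%) and 1 (15.1%). These counts moved with single mice, and without 1 mouse at a time they ran from 1 to 4, 2 to 5, 3 to 7, 0 to 2 and 1 to 4. Without T4 the first fell to 1, Gfap, and the second rose to 5. Without G1 the third fell to 3, without P3 the fourth fell to 0, and without A5 the last rose to 4. The lowest adjusted p of any member in any of these contrasts was the 0.0539 of Gjb6. The GCV against PBS contrasts share the limit given above for the leading numbers of the sample titles. The labels do not say what these numbers stand for.

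The ablation effect was compared between tissues within each mouse, as the striatum minus the SVZ log2 CPM, with limma over the 14197 genes tested in both. For Gfap the effects differed by -0.46 (SE 0.61, adjusted p = 0.843). Gjb6 was the only member of 10 with an unadjusted p under 0.05, which 10.0% of all genes had, at -1.40 (SE 0.64, adjusted p = 0.487). Its unadjusted p exceeded 0.05 on removal of a single mouse in 9 of 15 cases.

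Across the 15 mice, Gfap in the SVZ and in the striatum varied together, with Pearson's r of 0.64 (permutation p = 0.0112, adjusted over 10 members 0.112) and Spearman's rho of 0.59 (permutation p = 0.0234, adjusted 0.234). Without G1 and G2, the mice farthest from the SVZ median, r was 0.70. Within the 10 controls r was 0.62 (permutation p = 0.0588) and rho 0.66 (permutation p = 0.0443). T4, with the highest striatal Gfap, was kept in each of these values, so its part in them was not tested. Aqp4 had r of 0.53 (permutation p = 0.0427, adjusted 0.213), which fell to 0.12 without P3 and T4. The other 8 members had r between -0.43 and 0.41.

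**Figure D4:**
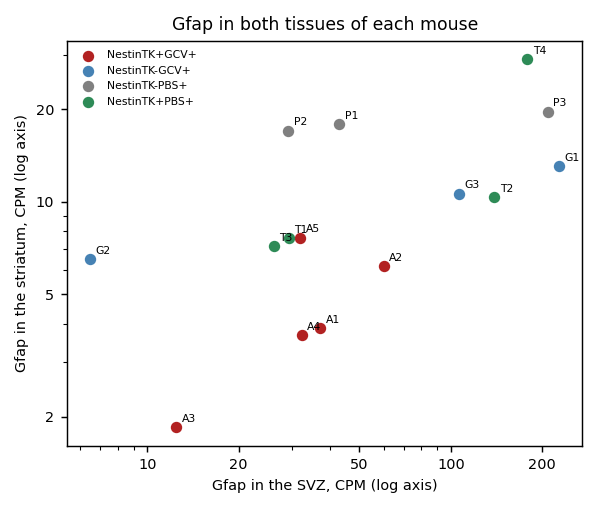
Gfap in the SVZ (horizontal) against Gfap in the striatum (vertical) of each mouse, both in TMM-scaled CPM on log axes, coloured by group. Mouse A3 is lowest in the striatum at 1.85 CPM and G2 lowest in the SVZ at 6.49 CPM. Of the controls, P3, G1 and T4 lie above the control median in both tissues, P1 and P2 only in the striatum, and T2 and G3 only in the SVZ.

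Further astrocyte genes were read from lists taken from textbook knowledge. These lists and those below were chosen with earlier results of these data known, so their counts beside all genes are a description. Of 17 other transport and channel genes, 4 were lower and 0 higher at an unadjusted p under 0.05 in the striatum, where 5.31% of all genes were lower and 5.19% higher. The lowest p was that of Kcnj10, the inward rectifier potassium channel Kir4.1 of astrocytes and oligodendrocytes, at -0.83 (SE 0.18, adjusted p = 0.0604), with 29.6 to 45.6 CPM in ablated mice and 45.7 to 122 CPM in controls. Its groups did not overlap. The others were Slc4a4, Atp1b2 and Slc16a1, which carry bicarbonate, sodium and potassium, and lactate. Of 20 other metabolic genes 4 were lower (Cbs, Prdx6, Dio2 and Clu) and 0 higher. Of 26 receptors, secreted factors and regulators 6 were lower and 1, Fam107a, higher, led by the neurotensin receptor Ntsr2 at -0.36 (SE 0.12, adjusted p = 0.258), with 30.5 to 47.5 CPM in ablated mice and 45.7 to 58.0 CPM in controls. The medians of these 3 lists were -0.25, -0.14 and -0.19. Of the genes named here, only Kcnj10 and Ntsr2 were taken by a rule, and the others were named after their values were seen.

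In the SVZ the same 3 lists held 0, 2 and 1 lower and 1, 0 and 2 higher genes at an unadjusted p under 0.05, where 6.09% of all genes were lower and 3.73% higher. The lower genes were Dbi, Clu and Nfia and the higher ones Slc4a4, Ntsr2 and Cxcl14, of which Slc4a4 and Ntsr2 were lower in the striatum. The medians were -0.07, -0.10 and 0.05. Dbi, which encodes the diazepam-binding inhibitor and is shared by astrocytes, stem cells and ependymal cells, was the only gene of these at a p of at most 0.01. It differed by -0.69 (SE 0.20, adjusted p = 0.347), with 239 to 440 CPM in ablated mice and 324 to 724 CPM in controls.

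Few of the genes that astrocytes raise when they become reactive had a low p, while most of the A1 and A2 lists had lower fitted levels in the ablated SVZ. In the striatum, of 8 pan-reactive genes tested 0 had an unadjusted p under 0.05, and of 11 genes of the A1 list and 6 of the A2 list 1 each was lower, where 5.31% of all genes were lower and 5.19% higher. The medians of the 3 lists were 0.11, 0.00 and -0.17. The A2 gene was S100a10, an annexin partner, and the A1 gene Amigo2, a cell adhesion gene, at -0.84 (SE 0.30, adjusted p = 0.299), with 2.46 to 5.38 CPM in ablated mice and 4.05 to 11.1 CPM in controls. In the SVZ 0 of 8, 0 of 12 and 1 of 9 had such a p, the last being B3gnt5, a glycosyltransferase gene, at 0 to 0.213 CPM in ablated mice and 0 to 9.62 CPM in controls. The SVZ medians were 0.15 for the pan-reactive genes, -0.85 for the A1 list with 9 of 12 lower and -0.74 for the A2 list with 7 of 9 lower, beside -0.03 over all genes. The summed A1 level was 59.3 to 145 CPM in ablated mice and 98.7 to 166 CPM in controls, with 3 of the 5 ablated mice below every control. Among the controls it was 129 to 155 CPM in NestinTK-GCV+, 121 to 166 CPM in NestinTK-PBS+ and 98.7 to 134 CPM in NestinTK+PBS+ mice. The NestinTK+PBS+ median of 101 CPM lay near the ablated median of 97.3 CPM, so a lower sum was not particular to ablated mice. Of 5 genes that build filaments or link them with GFAP, 1 in each tissue had an unadjusted p under 0.05. These were Synm, the synemin gene, at -0.55 in the striatum (SE 0.23, adjusted p = 0.384) and Plec, the plectin gene, at 0.44 in the SVZ (SE 0.20, adjusted p = 0.482). In both tissues 3 of the 5 were lower, with medians of -0.22 in the striatum and -0.69 in the SVZ, the latter being that of Vim, the vimentin gene. Their summed level in the striatum was 102 to 135 CPM in ablated mice and 132 to 154 CPM in controls, and 4 of the 5 ablated mice lay below every control.

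Oligodendrocyte genes moved with Gfap in the striatum. The summed level of 12 oligodendrocyte markers was 2394 to 3038 CPM in ablated mice and 2689 to 6559 CPM in controls, and 9 of the 10 controls lay above every ablated mouse. All 12 markers were lower, where 49.5% of all genes were, with a median difference of -0.62, and none was at 0. Of these, 9 had an unadjusted p under 0.05, where 5.31% of all genes were lower at such a p. An adjusted p under 0.05 in edgeR's test was reached by 3 of the 12, against 0.182% of all genes and 0 of the 10 members. None of the 12 was called, where 0.694% of all genes were. Over the 15 libraries the summed markers correlated with Gfap at r = 0.86, with Aqp4 at 0.79, with Glul at 0.71, with S100b at 0.69 and with Gja1 at 0.64, as a description of libraries that share group, depth and dissection. Gjb6 followed at 0.40, Aldoc at 0.29, Aldh1l1 at 0.19, Slc1a3 at 0.10 and Slc1a2 at 0.02. Spearman's rho with the same sum was 0.836 for Gfap, 0.779 for Aqp4, 0.775 for S100b, 0.729 for Glul and 0.543 for Gja1. The part of oligodendrocyte content in the Gfap result was not tested. In the SVZ the same sum was 2884 to 6109 CPM in ablated mice and 3049 to 11615 CPM in controls, and its r with Gfap was 0.33.

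In the SVZ markers of other cells of the ventricular wall were also read. All 12 ependymal markers were lower in ablated mice than in pooled controls, with a median of -1.24, 3 of them at an unadjusted p under 0.05. Of all SVZ genes tested, 51.9% were lower and 6.09% were lower at such a p. Their sum was 32.8 to 294 CPM in ablated mice and 105 to 464 CPM in controls. Among the controls it was 105 to 200 CPM in NestinTK-GCV+, 249 to 464 CPM in NestinTK-PBS+ and 216 to 380 CPM in NestinTK+PBS+ mice. Mice given GCV without the transgene thus lay below both PBS groups, so the lower sum was not particular to ablation. Of 14 neuroblast markers 12 were lower, with a median of -1.27, 6 of them called, where 1.22% of all genes were called lower. The sum of the 14 was 870 to 1125 CPM against 809 to 1529 CPM. Among these markers Prokr2 was at 0 in every ablated mouse. Of 10 stem and transit-amplifying markers 6 were lower, with a median of -0.06, none at an unadjusted p under 0.05, and their sum was 135 to 250 CPM against 126 to 344 CPM. Over the 15 libraries SVZ Gfap correlated with the summed stem and transit-amplifying markers at r = 0.66, with the neuroblast markers at 0.50 and with the ependymal markers at 0.33, as a description. The part of these cells in the SVZ Gfap values was not tested.

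The 5 striatum genes whose level followed Gfap most closely over the 15 libraries were Sept4, Trf, Ndrg1, Slc12a2 and Gjb1, with r between 0.93 and 0.94. Trf encodes transferrin, and Gjb1 the connexin 32 of myelinating cells. S100b stood at rank 67 of 15418 genes in this order (r = 0.81), Aqp4 at rank 185 (r = 0.73) and Slc1a3 at rank 11097 (r = -0.23). In the SVZ the 5 closest were Hikeshi, Arid2, Ppargc1a, Bax and Csnk1a1, with r between 0.81 and 0.84, and the closest members were Gja1 at rank 554 (r = 0.52) and S100b at rank 892 (r = 0.46).

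**Figure D5:**
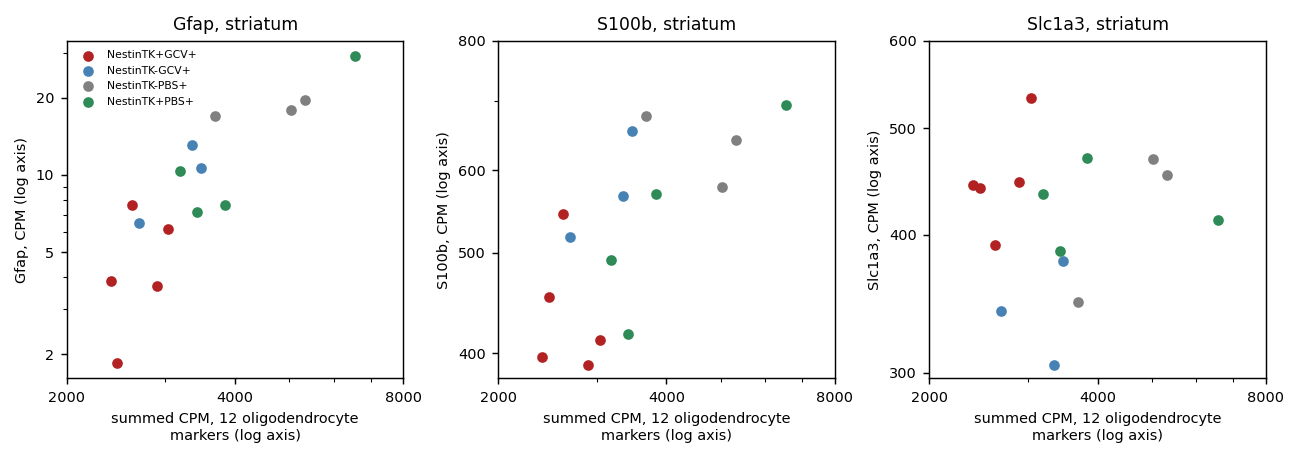
Level of Gfap (left), S100b (middle) and Slc1a3 (right) in each striatum library against the summed level of 12 oligodendrocyte markers, all in TMM-scaled CPM on log axes, coloured by group. Gfap and S100b are higher in libraries with more oligodendrocyte RNA (r = 0.86 and 0.69), while Slc1a3 shows little relation (r = 0.10).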

How the data were processed

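RNA was taken from dissected SVZ and striatum, 1 library per mouse and tissue. Per the labels, the SVZ kit was SMART-Seq v4 (10 cycles of PCR) and the striatum kit QuantSeq 3′ FWD. The authors trimmed reads with Trimmomatic (version 0.36 in the submitters' processing notes), aligned them with STAR 2.5.3a to mm10 (GRCm38) and deposited raw counts per gene from featureCounts, 1 table per tissue. The strand setting is not given in the sources used here. Samples were grouped by genotype and treatment from the labels, and mice were matched between tissues by the animal number that sample titles share.

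From these counts, genes above 1 CPM in at least 3 libraries were tested per tissue with edgeR 4.0.16 (TMM scaling, quasi-likelihood test, R 4.3.3), ablated against pooled controls and by 4 groups, with Benjamini-Hochberg adjustment over all genes. A call is a p of at most 0.01 with at least a 2-fold difference, after the study. Differences are log2, ablated minus control. Gfap ratios used log2 CPM with a prior count of 2. Limma 3.58.1 compared tissues, DESeq2 1.42.0 and limma-voom were alternatives, and correlations between tissues used 100000 permutations (scipy 1.17.1). Gene models and overlaps come from GENCODE on GRCm38. The fits were tested on simulated data.

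The text names the 10 members, genes of the other astrocyte lists at a p of at most 0.01 (at most 5 per list) and the 5 genes most correlated with Gfap. Other list genes named in the text were chosen after their values were seen. Members and lists were chosen with earlier results of these data known. The labels do not say whether mice shared litters or batches. The p-values measure the spread between mice.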

Additional observations from a re-analysis of the deposited data

Results flagged for a closer look

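Within groups of 4 to 10 libraries, 3 of 60 sets held a library far from the others by Dixon's criterion, and chance gives about 5% of such sets. In the SVZ controls S100b stood at 263 CPM in G1, next to a highest value of 151 CPM in the other controls. In the ablated SVZ libraries A2 stood apart with 715 CPM of Slc1a3 and with 712 CPM of Glul. A2 is also the ablated SVZ library with the most cortical neuron marker RNA, at 660 CPM, whose part was not tested.

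Gjb6 was marked for differences between groups. In the striatum its response to GCV differed between NestinTK+ and NestinTK- mice by -1.19 on the log2 scale, and its ablation effect in the striatum differed from that in the SVZ by -1.40. The first had an adjusted p of 0.0539 in edgeR's test and the second of 0.487 in limma.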

How the results depend on the processing

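Striatal Gfap stayed past the thresholds in all 15 fits that left out 1 mouse (-1.83 to -1.38) and under all 7 other settings (-1.58 to -1.13). The SVZ difference passed without the choroid-rich controls (-1.88, members called 1), and the 7 other settings gave -1.70 to -0.995, the last with limma-voom. Without 1 mouse at a time it lay at -1.80 to -1.29, passed only without G2, and 0 to 1 members were called. Without A3 the 1 member called in the SVZ was Gjb6. With no filter on low counts, Gfap passed in the SVZ for GCV in NestinTK+ mice (-1.47) and between genotypes under GCV (-1.74), and in the striatum between genotypes under GCV (-1.11). The SVZ difference between genotypes under PBS, near 0, turned positive with limma-voom (0.28), library totals (0.11) and no filter (0.015). With NestinTK-GCV+ controls alone, 0 Gfap ratios in the SVZ and 2 in the striatum had an exact permutation p under 0.05. Differences then turned sign for SVZ Aqp4 (0.11), SVZ Gja1 (0.031) and striatal Gja1 (0.50). With NestinTK+PBS+ controls alone SVZ S100b (0.078) and Aldh1l1 (-0.061) turned. SVZ Gja1 turned with DESeq2 and with RLE factors (0.0093 in each), Aldh1l1 with limma-voom (-0.021) and library totals (-0.058), and Aldoc with library totals (-0.0083).

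Leaving out 1 mouse at a time gave these ranges. SVZ Gfap lay at -1.74 to -0.90 for GCV in NestinTK+ mice, -0.72 to 1.65 in NestinTK- mice, -2.26 to -0.70 between genotypes under GCV, -0.53 to 1.37 under PBS and -3.08 to -0.70 for the interaction. Striatal Gfap lay at -1.79 to -0.83 for GCV in NestinTK+ mice and -1.08 to -0.62 in NestinTK- mice. It lay at -1.36 to -0.88 between genotypes under GCV, -1.13 to -0.19 under PBS and -0.94 to 0.025 for the interaction. The Gjb6 interaction in the striatum lay at -1.33 to -0.94. Ablated against control, SVZ S100b lay at -0.14 to 0.094, Gja1 at -0.16 to 0.18, Aldh1l1 at -0.14 to 0.26 and Glul at -0.20 to 0.31, and striatal Gja1 at -0.16 to 0.037. The tissue difference lay at -0.11 to 0.14 for Gja1 and -0.51 to 0.026 for Aldh1l1. Of the 9 SVZ Gfap ratios, 1 to 7 had an exact permutation p under 0.05. The causes were not tested. Of 1084 further fits of single members, 1029 kept direction and side of the threshold. That threshold was the call rule for differences and an unadjusted p under 0.05 for Gfap ratios and tissue differences. Most of these results had not passed with all mice, so their staying on that side says little. Low striatal Gfap counts and the wide SVZ spread limit what these 15 mice can show.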
